A study of Homo sapiens with 34 samples.

Results

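The mitochondrial ribosomal protein mRNAs are the transcripts of nuclear genes named MRPL or MRPS followed by a number and, at most, 1 letter. The name pattern alone chose them, and the deposited tables held 73 such genes, 47 MRPL and 26 MRPS, of 19041 genes with a 3′UTR interval of their own. They were measured in hTERT-RPE1, a human retinal pigment epithelial cell line immortalised with telomerase, by SLAM-seq. In this method the uridine analogue 4-thiouridine (s4U) enters new RNA and is read as T>C conversions in sequencing reads from mRNA 3′ ends. The labels give 34 libraries, 17 from each of 2 lines. The knockdown line carried an inducible shRNA against the 3′UTR of CCND1, the mRNA of cyclin D1. The overexpression line carried the same inducible shRNA and an inducible CCND1 allele that the shRNA does not target. Knockdown cells are described as large and overexpression cells as small. Both lines were kept in 0.5 µg/mL doxycycline throughout, so that neither is an untreated control, and the comparison between them is one of 2 induced states. From day 4 the cells received 10 µM s4U, renewed every 3 h over a pulse of 24 h, or 10 µM uridine in the unlabelled libraries, and were then chased in 1 mM uridine for up to 1440 min. Lentiviral vectors carried the constructs, and the lines were sorted or drug selected. The lines were polyclonal for CCND1 expression, so that a library can mix cells with different CCND1 levels. Each line had 2 numbered time courses, written here as knockdown course 1 and so on. Nothing in the labels says how the courses relate to separate cultures, so the p-values measure the spread between these courses, which may be technical.

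Mitochondria translate the few proteins encoded in their own genome on a ribosome of their own. Its RNAs are made inside the organelle, whereas all of its proteins are encoded in the nucleus, made in the cytosol and imported. Some of these proteins have counterparts in every ribosome, some only in bacteria, and others occur only in mitochondria. The large subunit holds the peptidyl transferase centre and the exit tunnel, which faces the inner membrane, and the small subunit holds the decoding site. The products are core subunits of the respiratory chain and of ATP synthase. The names follow the subunit with a few exceptions. MRPS18A and MRPS30 are named for the small subunit but sit in the large one, and MRPS36 is now placed in the 2-oxoglutarate dehydrogenase complex.

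Promoters of the members held 2 short sequences more often than promoters in general did. RefSeq sequences from 250 bases before to 50 bases from the annotated start on (build GRCh38.p14) were at hand for 65 of the 73 members and for 27305 genes in all. The letters CCGGAAG, the core of sites of the ETS family, stood on either strand in 27 member promoters, which is 41.5%, against 10.7% of all promoters and 18.4% of the promoters of genes tested for abundance. The letters AAGATGGC, found in binding sites of YY1, stood in 18 member promoters, which is 27.7%, against 3.03% of all and 5.25% of those tested. Of the nuclear genes for oxidative phosphorylation subunits, 31.1% held the first and 18.03% the second. Either motif stood in 38 members, or 58.5%, against 13.1% of all promoters, and 7 members held both. The letters GCATGCG of NRF1 stood in 7 members (10.8%), against 4.13% of all promoters and 6.38% of those tested. GGGGCGGGG of the SP and KLF family stood in 15 (23.1%), against 16.0% of all and 27.0% of those tested, and the E-box CACGTG in 6 (9.23%), against 7.43% and 9.76%. The last 2 motifs were thus no more frequent in members than in the promoters of genes tested. No matches of different motifs overlapped in a member promoter. These counts describe letters in a window and not binding.

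Of the 19 AAGATGGC matches in members, 15 lay on the gene's own strand and 13 lay after the annotated start. In 10 members the ATG within the match was an annotated start codon of the GENCODE annotation. This is 15.4% of the 65 member promoters against 2.25% of those of the genes tested. Among promoters that held the letters, the ATG was a start codon in 10 of 18 members and in 233 of 544 genes tested. The first contrast thus largely follows the frequency of the letters themselves. The same letters form the core of TISU, an initiator element of mRNAs with very short 5′ leaders. The windows below are a selection from members that held a motif and are named in the results on abundance and turnover, with 1 member that held both motifs. Other members that those results turn on held neither. These include MRPL39 and MRPL1, called lower in the knockdown line, and MRPL44, with the shortest half-life. Capitals mark the motif, and each window is written on the gene's strand.
MRPL58, chr17:75012651-75012680, plus strand, ETS motif: ggaagcgcccgCCGGAAGcagtcgcaagac
MRPL48, chr11:73787800-73787829, plus strand, ETS motif on the other strand: aatttcagaagCTTCCGGaactaaaatgat
MRPL43, chr10:100987497-100987526, minus strand, ETS motif: tcgtcccggaaCCGGAAGcctcgaggttta
MRPS16, chr10:73252621-73252650, minus strand, ETS motif on the other strand: cggatcatccgCTTCCGGagtcgaggtttt
MRPS18A, chr6:43687804-43687833, minus strand, ETS motif: ggcgctacgttCCGGAAGcggaaatggacg
MRPS18A, chr6:43687764-43687793, minus strand, YY1 motif at the start codon: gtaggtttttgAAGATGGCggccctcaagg
MRPL45, chr17:38297170-38297199, plus strand, YY1 motif at the start codon: tttgcgggaacAAGATGGCagcccccatac
MRPS30, chr5:44808949-44808978, plus strand, YY1 motif at the start codon: aatcgcgggcaAAGATGGCggcggccaggt
Members with the ETS letters had a median log2 difference between the lines of -0.12 (n = 26 tested) and those without of -0.11 (n = 37). The medians were -0.10 with the YY1 letters (n = 17) and -0.14 without (n = 46). Neither motif therefore sorted the members by their difference between the lines.

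The libraries held 14712332 to 44480703 reads in annotated 3′UTR intervals, of which the members took 0.471% to 0.654%. MRPL30, with 0 reads of its own, and MRPL46, with 13 in all libraries together, could not be measured, and their other 3′UTR intervals also name another gene. The other 71 passed the filter on low counts in each test of abundance. MRPL38, MRPL53, MRPS17, MRPS24 and MRPS28 stood only in intervals shared with another gene and are not among the 73. Of the reads of MRPL23, a protein by the exit tunnel, 99.1% mapped to several places, so its values are uncertain. Of the 7 markers of pigment epithelium looked at, RPE65, BEST1, RLBP1 and TYRP1 had a median level of 0 in CPM. CPM are a gene's reads scaled to the library's total of 3′UTR reads. PMEL had a median of 0.135 CPM and OTX2 of 1.95 CPM. In contrast, MITF had a median of 48.9 CPM and the epithelial keratins KRT8 and KRT18 had 381 and 445 CPM. The other epithelial markers looked at, KRT19, EPCAM and CDH1, had medians of 0 CPM. From the rest of their line 3 libraries stood apart: the unlabelled library of knockdown course 1, and the unlabelled and 720 min libraries of overexpression course 1. Over 10014 genes their log2 values correlated with the mean of the rest of their line at r = 0.904, 0.927 and 0.892, against 0.971 to 0.990 for the other 31 libraries. The members' deviations from the rest of their line had SDs of 0.80, 0.60 and 0.90 on the log2 scale in these libraries, against 0.15 to 0.41 in the others. What sets these libraries apart was not tested.

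**Figure D1:**
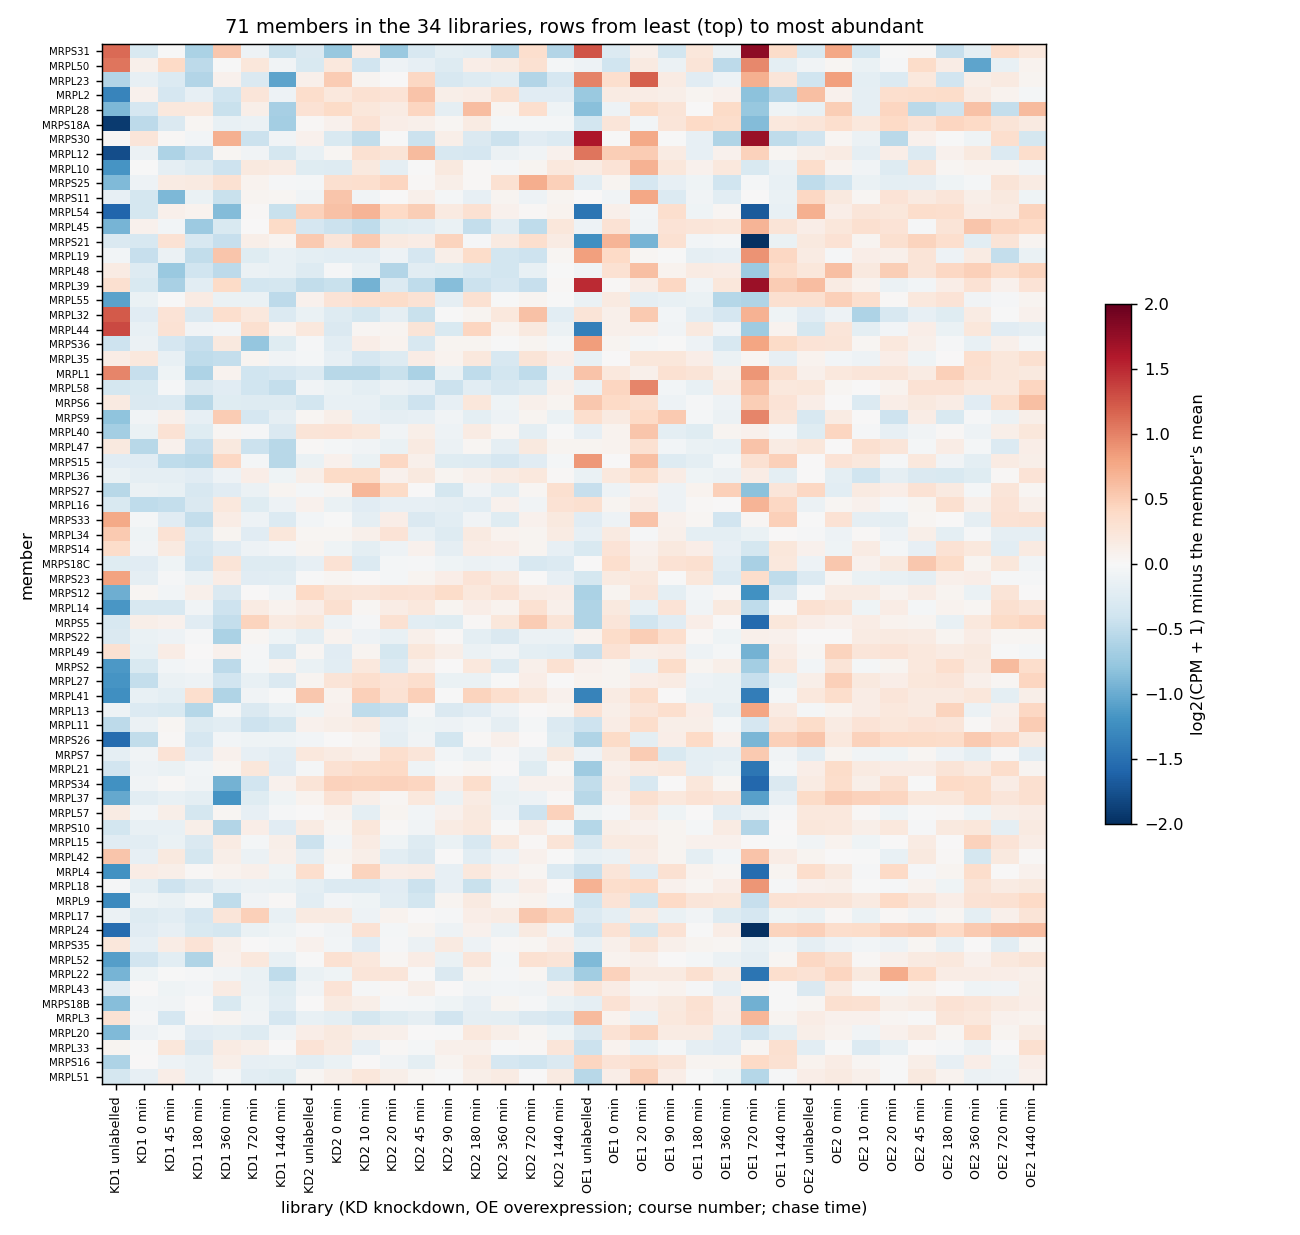
Each row is 1 of the 71 members and each column 1 of the 34 libraries. Colour gives log2(CPM + 1) minus the member's mean over all libraries, drawn from -2 to 2. The columns of the unlabelled libraries of course 1 of both lines and of the 720 min library of overexpression course 1 depart from their neighbours, with MRPL44 and MRPL32 high and MRPS18A and MRPL12 low in the first, MRPS30 and MRPL39 high and MRPL54 and MRPL44 low in the second, and MRPS31, MRPS30 and MRPL39 high and MRPS21 and MRPL24 low in the third.

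As a set, the members were moderately abundant. CPM count reads at the 3′ end, so that they do not depend on mRNA length in the way reads along the whole mRNA do, but they are a share of the library. Fewer cells and less RNA per cell cannot be told apart in them. The median member had 67.2 CPM (mean over all libraries), between 20.9 CPM for all genes tested and 153 CPM for the oxidative phosphorylation subunits. Cytosolic ribosomal protein mRNAs had a median of 1203 CPM. Of the 71 members, 19 reached 100 CPM and 6 were below 30 CPM. The summed MRPL level was 1.81 to 2.11 times the summed MRPS level in each of the 34 libraries, with a median of 2.02.

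Among the large subunit mRNAs, MRPL51, MRPL33, MRPL20 and MRPL3 had the highest levels. MRPL51, a mitochondria-specific protein, had 273 to 411 CPM in the knockdown libraries (median 358) and 235 to 490 CPM in the overexpression libraries (median 367, 17 libraries each). MRPL33, a small protein near the tRNA exit site, had medians of 253 and 236 CPM, MRPL20, an early binder of the large rRNA, 184 and 197 CPM, and the core protein MRPL3 137 and 166 CPM, in knockdown and overexpression libraries. The ranges of the lines overlapped for each of these mRNAs. The least abundant were MRPL50, MRPL23, MRPL2 and MRPL28, with means of 18.5, 22.9, 25.1 and 26.5 CPM over the 34 libraries. Among the MRPS mRNAs, MRPS16, a protein of the small subunit body, led with 162 to 280 CPM in the knockdown libraries (median 225) and 224 to 338 CPM in the overexpression libraries (median 273). MRPS18B, MRPS35 and MRPS10 followed with means of 156, 126 and 102 CPM. The 3 paralogues of bacterial S18 had unequal levels, with 29.7 CPM for MRPS18A against 156 CPM for MRPS18B. MRPS31, a protein of the small subunit head, was the least abundant, with 4.11 to 17.9 CPM in the knockdown libraries (median 6.10) and 5.29 to 29.0 CPM in the overexpression libraries (median 7.78). Its highest values in each line came from libraries that stood apart, namely the unlabelled one of knockdown course 1 and that of overexpression course 1 at 720 min. MRPS30 likewise ranged from 17.9 to 94.7 CPM in the overexpression line around a median of 27.5 CPM, with its highest value in that same 720 min library.

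The first comparison asked how the abundance of these mRNAs differed between the lines. Reads of the 6 libraries that every course had (unlabelled, 0, 180, 360, 720 and 1440 min) were added up per course, and 2 knockdown were tested against 2 overexpression courses with edgeR's quasi-likelihood test over 13165 genes, with p-values adjusted by the Benjamini-Hochberg method. Of the 71 members, 5 passed the 0.05 threshold, all of them lower in the knockdown line and all of them of the large subunit. MRPL39, a mitochondria-specific protein, had 34.8 and 28.2 CPM in the knockdown courses and 57.7 and 44.2 CPM in the overexpression courses, a log2 difference of -0.69 (SE 0.16, adjusted p = 0.0134 by edgeR). MRPL45, which anchors the ribosome at the inner membrane, had 31.6 and 28.9 CPM against 43.4 and 44.9 CPM (log2 difference -0.54, SE 0.13, adjusted p = 0.0162 by edgeR). MRPL1, the protein of the L1 stalk at the tRNA exit, had 42.6 and 32.6 CPM against 56.0 and 52.0 CPM (-0.52, SE 0.15, adjusted p = 0.0334 by edgeR). In each of these, both knockdown courses lay below both overexpression courses. MRPL58, a peptidyl-tRNA hydrolase built into the large subunit, had 35.2 and 40.3 CPM against 52.6 and 53.0 CPM (-0.48, SE 0.14, adjusted p = 0.0331 by edgeR). MRPL48, a protein of the central protuberance, had 33.2 and 33.5 CPM against 41.5 and 51.2 CPM (-0.47, SE 0.15, adjusted p = 0.0468 by edgeR). The courses of the lines did not overlap for these mRNAs either. All 5 lay below the members' median level.

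The 3′UTR intervals that carried most of these reads (build hg38) were chr21:25585656-25585750 on the minus strand for MRPL39, and, on the plus strand, chr17:38322596-38323218 for MRPL45, chr4:77952546-77952790 for MRPL1, chr17:75021006-75021261 for MRPL58 and chr11:73864296-73865133 for MRPL48. Reads that mapped to several places made up at most 0.198% of the reads of any of the 5.

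Set against the other genes, the share of members called was small in this test, but the count was higher in some alternatives given below. Markers of cell type also differed between the lines, and MITF (log2 difference 0.96, adjusted p = 0.00184), KRT8 (0.92, adjusted p = 0.00308) and KRT18 (0.63, adjusted p = 0.00798 by edgeR) were higher in the knockdown line, on lists where 2 of 7 pigment epithelium and 2 of 5 epithelial markers reached a median of 1 CPM. The summed level over the libraries was 47.7 to 110.3 CPM in the knockdown and 37.1 to 52.6 CPM in the overexpression line for the pigment epithelium list, and 618 to 1336 CPM and 385 to 882 CPM for the epithelial list. MITF made up most of the pigment epithelium sum, with 33.6 to 108.5 CPM over all libraries. It was the only 1 of the 4 pigment epithelium markers tested that lay above 0. The weakly expressed OTX2 (-0.82), PMEL (-0.67) and BEST1 (-0.999) lay below 0, and none of these 3 passed the threshold. The part of these markers in the members' differences was not tested. Of all genes tested, 21.9% were called, 11.2% higher and 10.7% lower in the knockdown line. Of the members, 0 of 71 were called higher and 5 (7.04%) lower. At an unadjusted p under 0.05 by edgeR, 17 members were lower and 0 were higher. The members' median log2 difference was -0.12 and that of all genes -0.01, with 55 members below 0 and 16 above. Both knockdown courses lay below both overexpression courses for 31 of the 71 members (43.7%), against 30.9% of all genes tested. Both lay above for 7 members (9.86%), against 29.9% of all genes. The largest values above 0 were those of MRPL44, a protein by the exit tunnel (log2 difference 0.31, SE 0.14, adjusted p = 0.146 by edgeR), MRPS25 (0.26, adjusted p = 0.288) and MRPL17 (0.22, adjusted p = 0.326), none of which passed the test. Summed over the members, the knockdown courses had 5150 and 5826 CPM and the overexpression courses 5883 and 6256 CPM, and the sums of the lines did not overlap.

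**Figure D2:**
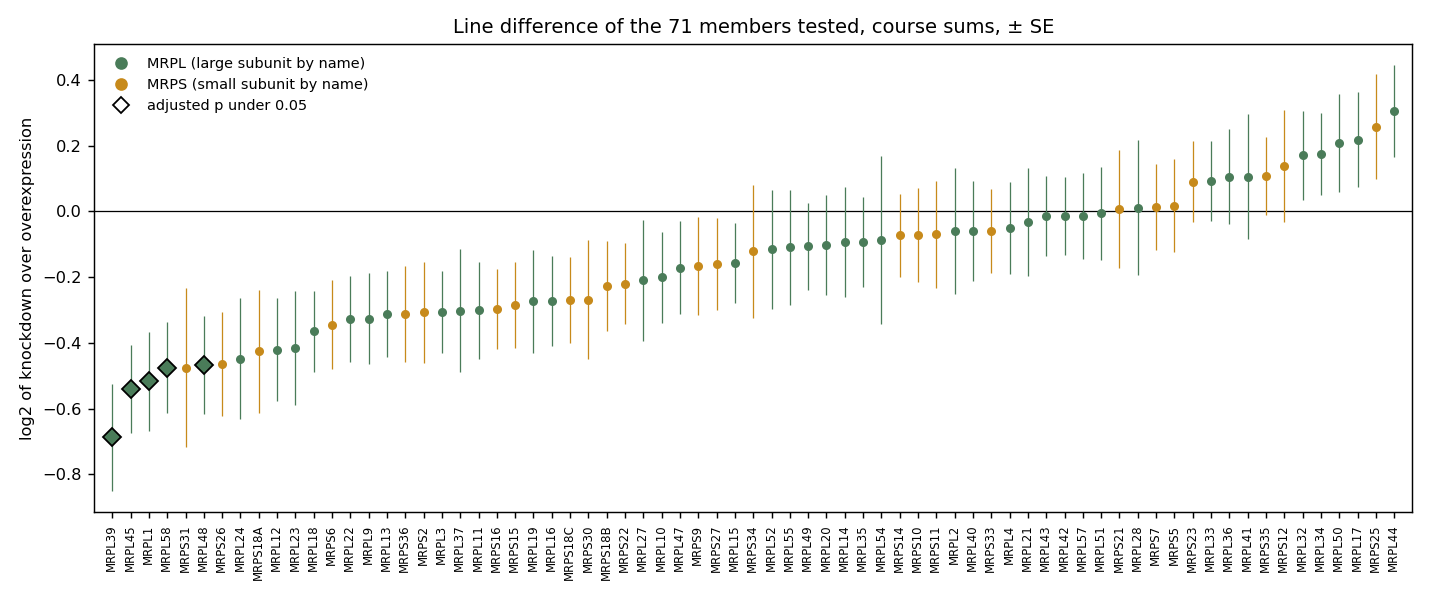
Points give each member's log2 difference of the knockdown over the overexpression line, with bars of 1 SE, from 2 course sums per line, in order of size. Diamonds mark the 5 members past an adjusted p of 0.05, all MRPL mRNAs between -0.69 and -0.47, and most of the other points also lie below 0.

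The medians of both subunits lay below 0, and the difference between the subunits was not tested. The 45 MRPL mRNAs had a median log2 difference of -0.11, with 36 below 0 and 5 called, and the 26 MRPS mRNAs a median of -0.16, with 19 below 0 and 0 called. Placing MRPS18A and MRPS30 in the large subunit and leaving out MRPS36 gave medians of -0.12 for both (n = 47 and 23). By kinship, the 24 proteins shared by all ribosomes had a median of -0.19 with 1 called, the 18 shared with bacteria -0.10 with 0 called, and the 29 specific to mitochondria -0.12 with 4 called. Of the 3 S18 paralogues, MRPS18A differed by -0.43 (adjusted p = 0.131), MRPS18C by -0.27 (adjusted p = 0.174) and MRPS18B by -0.23 (adjusted p = 0.269), all by edgeR and none past the threshold. The stalk proteins that recruit translation factors, MRPL12, MRPL11 and MRPL10, differed by -0.42, -0.30 and -0.20 and MRPS12 of the decoding site by 0.14, with adjusted p from 0.0809 to 0.622 by edgeR. MRPS36 differed by -0.31 (adjusted p = 0.157 by edgeR), a value within the range of the true ribosomal proteins.

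The libraries that stood apart bear on the number of calls. Without the unlabelled and 720 min libraries, 13 members were lower and 0 higher, where 15.3% of all genes were called lower and 30.9% in either direction. All 5 named above remained among the 13, with log2 differences of -0.66 for MRPL1, -0.62 for MRPL48, -0.46 for MRPL58 and MRPL45 and -0.42 for MRPL39. The other 8 were MRPL3, MRPL9, MRPL11, MRPL18, MRPL22, MRPL24, MRPS18A and MRPS26. Without overexpression course 2 only MRPL39 was called, where 17.3% of all genes were called in either direction. Without knockdown course 2 the 7 called held 1 of the 5, MRPL58, where 16.4% of all genes were called. The count of members lower therefore rests on single courses, while 0 members were higher when any 1 course was left out.

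Cytosolic ribosomal protein mRNAs had a similar median, -0.14, with 0 higher and 2 lower of 78. Nuclear oxidative phosphorylation mRNAs, whose products the mitochondrial ribosome complements, had a median of 0.12, with 2 higher and 0 lower of 75. No test of the difference between these groups and the members was made. Of 26 genes for assembly of the mitochondrial ribosome, 3 (11.5%) were lower and 0 higher (median -0.12), a share near the 10.7% of all genes. These were MTERF3 (-0.76, adjusted p = 0.0118), the rRNA methyltransferase MRM2 (-0.71, adjusted p = 0.0123) and the pseudouridine synthase RPUSD4 (-0.46, adjusted p = 0.0413 by edgeR). Of 16 mitochondrial translation factors, 2 (12.5%) were lower and 0 higher, again near that share, namely TACO1, an activator of COX1 translation (-0.55, adjusted p = 0.0283), and C12orf65, a release factor (-0.49, adjusted p = 0.0227 by edgeR). TFAM, which packages mitochondrial DNA and acts in its transcription, was lower in the knockdown line, with 49.9 and 51.6 CPM against 95.4 and 83.1 CPM (-0.81, SE 0.13, adjusted p = 0.00187 by edgeR). It was the only 1 of 4 mitochondrial transcription genes past the threshold. The 5 subunits with other names, DAP3, AURKAIP1, PTCD3, CHCHD1 and GADD45GIP1, ranged from -0.39 to 0.15 with 0 called. Of the intervals shared with another gene, that of MRPL38 was lower in the knockdown line (-0.52, adjusted p = 0.0357 by edgeR), with its partner's reads included.

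The second comparison asked whether the label itself went with a change in abundance, with the 4 libraries at 0 min against the 4 unlabelled ones. No member of 71 passed the threshold, and 0% of the 11826 genes tested did, although 402 genes and 1 member had an unadjusted p under 0.05 by edgeR. DESeq2 called 2 of all genes and 0 members. The members' median log2 change was 0.18, with 49 above 0. The lowest values were those of MRPS31 (-0.79, adjusted p = 0.887 by edgeR), MRPL39 (-0.68), MRPL1 (-0.56), MRPS30 (-0.49) and MRPL32 (-0.48). For MRPL39 the unlabelled libraries had 45.6 and 25.6 CPM in the knockdown courses and 104 and 56.8 CPM in the overexpression courses, and the 0 min libraries 29.4 and 26.5 CPM and 37.2 and 41.1 CPM. In each line the higher unlabelled value was that of course 1, whose unlabelled library stood apart. Overexpression course 2, whose unlabelled library did not stand apart, also had more without label (56.8 CPM) than at 0 min (41.1 CPM).

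The third comparison asked how levels changed over the chase, from 0 to 1440 min (4 libraries each). MRPL23 alone passed, and it was lower at 1440 min (log2 change -0.75, SE 0.21, adjusted p = 0.0336 by edgeR), where 4.63% of the 11927 genes tested were called and 2.27% of those tested were lower. It had 19.2 and 31.2 CPM at 0 min in the knockdown courses and 27.6 and 38.9 CPM in the overexpression courses. At 1440 min these were 9.86, 16.9, 25.9 and 22.6 CPM in the same order. The level fell in each of the 4 courses, but the values at 0 and 1440 min overlapped between courses, and nearly all these reads mapped to several places. The median of the 71 members was -0.10, with 50 below 0 (MRPL -0.08, MRPS -0.15). Next in order were MRPL22 (-0.35, adjusted p = 0.0634), MRPS18C (-0.42, adjusted p = 0.0734) and MRPS18B (-0.31, adjusted p = 0.104 by edgeR), which did not pass. Of the cytosolic ribosomal protein mRNAs 7 of 77 were lower at 1440 min (median -0.23). The change over the chase did not differ between the lines for any member past the threshold, with 0.0163% of 12280 genes called and 2 members at an unadjusted p under 0.05 by edgeR. DESeq2 called 13 of all genes and 0 members in that comparison. The members' differences ranged from -0.54 to 0.66 with a median of 0.03.

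The label left over the chase measured how fast these mRNAs were replaced. T>C conversions over covered T, pooled over the members, made up 0.958% and 0.922% at 0 min in the knockdown courses and 1.02% and 0.965% in the overexpression courses, against 0.0165% to 0.0349% in the unlabelled libraries. After subtraction of the unlabelled value, 81.5% to 88.0% of the 0 min rate was left at 180 min and 52.2% to 62.1% at 360 min over the 4 courses. At 720 min 22.5% and 19.0% were left in the knockdown courses and 9.39% and 15.7% in the overexpression courses, and at 1440 min 3.10% and 1.97% against 1.51% and 1.30%. Pooled over all members, the lines did not overlap at 360, 720 and 1440 min, with more label left in the knockdown line. Pooled by subunit, this held for the MRPL mRNAs at each of these times, but for the MRPS mRNAs at 720 min only. At 360 min the MRPS values were 46.9% and 57.4% in the knockdown courses against 49.8% and 41.6%. At 1440 min they were 1.39% and 0.525% against 0.618% and 0.678%. With 2 courses against 2, an exact permutation test could not reach 0.05, and none was made. Over all genes pooled the lines did not overlap at 360, 720 and 1440 min either, so the separation of the pooled members is no trait of them alone. For all genes, 54.9% and 57.2% against 53.5% and 47.9% were left at 360 min. At 720 min these were 27.4% and 26.0% against 14.1% and 19.5%, and at 1440 min 8.15% and 7.09% against 4.59% and 3.16%. Overexpression course 1 was the lowest at 720 min, and its 720 min library stood apart.

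MRPS mRNAs kept less label than MRPL mRNAs from 360 min on. At 360 min the pooled MRPL rate was 62.2%, 64.2%, 56.7% and 57.7% of its 0 min rate in knockdown courses 1 and 2 and overexpression courses 1 and 2, and the pooled MRPS rate was 46.9%, 57.4%, 49.8% and 41.6%. The MRPS value was the lower one in each of the 4 courses. At 720 min the MRPL values were 25.7%, 20.9%, 12.2% and 18.3% and the MRPS values 16.0%, 14.8%, 3.54% and 10.8%, again lower in each course. With each gene given equal weight, the median at 360 min was 56.6% ± 7.82 (SD over 4 courses) for 43 MRPL mRNAs and 44.8% ± 6.93 for 26 MRPS mRNAs. By place in the structure it was 55.0% ± 8.37 (n = 45) and 45.5% ± 7.06 (n = 23). This difference was described and not tested.

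**Figure D3:**
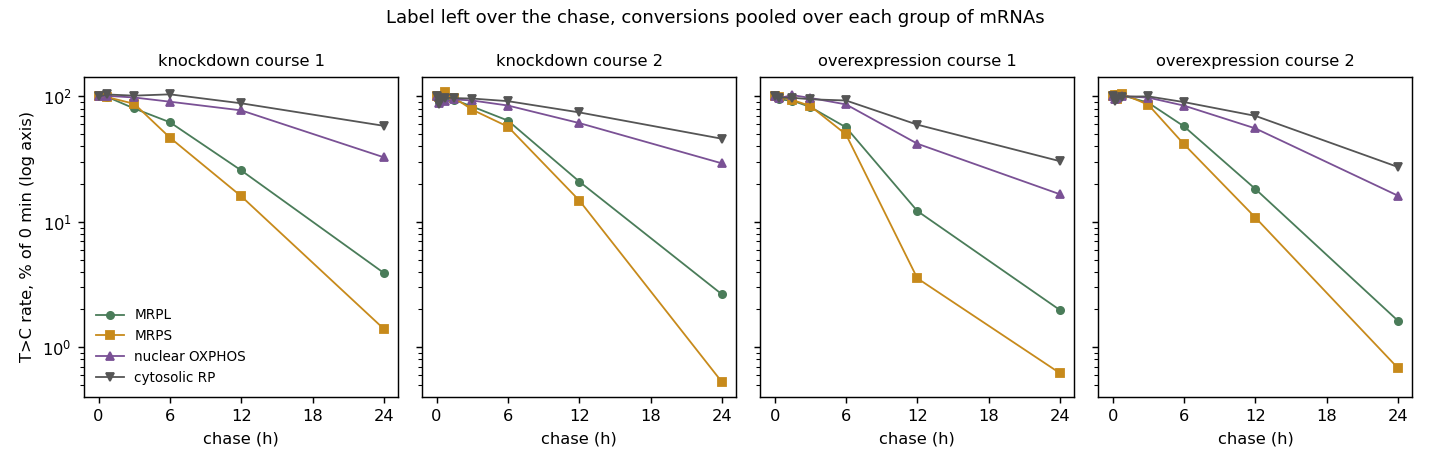
Each panel is 1 time course, and the lines give the T>C rate above the unlabelled library as a percentage of that at 0 min (log axis) against hours of chase, pooled over MRPL, MRPS, nuclear oxidative phosphorylation (OXPHOS) and cytosolic ribosomal protein (RP) mRNAs. At 24 h the MRPL lines reach 1.62% to 3.89% and the MRPS lines 0.525% to 1.39%, below the 16.1% to 58.2% of both other groups.

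The mRNAs of the other groups kept their label far longer. At 360 min 84.5% to 90.8% of the 0 min rate was left on the oxidative phosphorylation mRNAs and 90.2% to 104% on the cytosolic ribosomal protein mRNAs. At 1440 min these were 16.1% to 32.6% and 27.3% to 58.2%. All genes pooled kept 47.9% to 57.2% at 360 min and 3.16% to 8.15% at 1440 min, where the members kept 1.30% to 3.10%. With each gene given equal weight, the medians at 360 min were 53.2%, 61.7%, 49.3% and 45.8% for 69 members and 38.4%, 44.02%, 37.6% and 29.8% for all genes. The medians at 720 min were 15.4%, 15.1%, 1.78% and 10.3% for the members and 7.71%, 6.07%, 0.744% and 4.31% for all genes. By these medians the members kept more label than all genes at both times, in each course. By pooled conversions they kept more at 360 min but less at 720 and 1440 min, in each course. No course of the members overlapped with a course of the oxidative phosphorylation or cytosolic ribosomal protein mRNAs from 180 min on.

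Half-lives were fitted as a single exponential decay from 0 min, in each course, for genes with at most 10% multimapped reads. A fit was kept with an R2 of at least 0.6. Of 69 members fitted, 59, 47, 60 and 61 were kept in knockdown courses 1 and 2 and overexpression courses 1 and 2, and 37 in all 4. The filter favours mRNAs whose decay is well described, and the 37 do not stand for all members. Their median half-life was 5.44 and 5.75 h in the knockdown courses and 4.90 and 5.40 h in the overexpression courses. For the 3317 genes kept in all courses the medians were 4.99, 5.35, 4.88 and 4.44 h. For 21 oxidative phosphorylation mRNAs they were 14.1, 12.7, 9.54 and 10.6 h, and for 17 cytosolic ribosomal protein mRNAs 29.1, 21.7, 15.1 and 18.3 h. Each of the 37 members had a mean half-life under 10 h, as did 92.7% of all genes kept, 28.6% of the oxidative phosphorylation and 0% of the cytosolic ribosomal protein mRNAs. A fit from 180 min on with a free start gave shorter ones, with member medians of 4.47, 4.87, 3.18 and 3.38 h (n = 57) and medians of 3.19, 3.55, 2.65 and 2.54 h over 5808 genes.

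Among the members, half-lives ran from 2.26 to 9.84 h. MRPL44 had the shortest, 2.66 and 1.12 h in the knockdown courses and 3.22 and 2.05 h in the overexpression courses. MRPS30, a large subunit protein by structure, followed with 2.01, 4.17, 1.41 and 2.96 h. MRPS2 and MRPS9, proteins of the small subunit body and head, had means of 4.00 ± 0.82 and 4.01 ± 1.45 h (SD, n = 4 courses), MRPS26 4.04 ± 2.25 h, MRPL58 4.45 ± 0.81 h, MRPL17 4.67 ± 0.57 h and MRPL42 4.80 ± 1.42 h. At the other end, MRPL43 had 8.54, 12.2, 13.4 and 5.23 h, MRPL51 11.98, 8.67, 8.90 and 9.71 h, MRPS16 11.7, 9.37, 6.03 and 6.88 h, and MRPL33 8.47, 6.55, 6.92 and 11.3 h, in the same order of courses. MRPL13, MRPS14, MRPS34 and MRPS7 followed with means of 7.90, 7.41, 7.41 and 6.72 h. The courses of MRPL44 lay wholly below those of MRPL51, MRPS16 and MRPL33, whereas neighbours in the order overlapped. MRPL51, MRPS16 and MRPL33 were also among the most abundant members. MRPS18B and MRPS18C were close, with 4.99 ± 0.79 and 5.06 ± 0.14 h, and MRPS18A was kept in 3 courses only. By name, MRPL mRNAs (n = 21) had a median of mean half-lives of 5.66 h and MRPS mRNAs (n = 16) of 5.35 h. Without the R2 minimum these were 6.77 h (n = 42) and 5.82 h (n = 26).

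**Figure D4:**
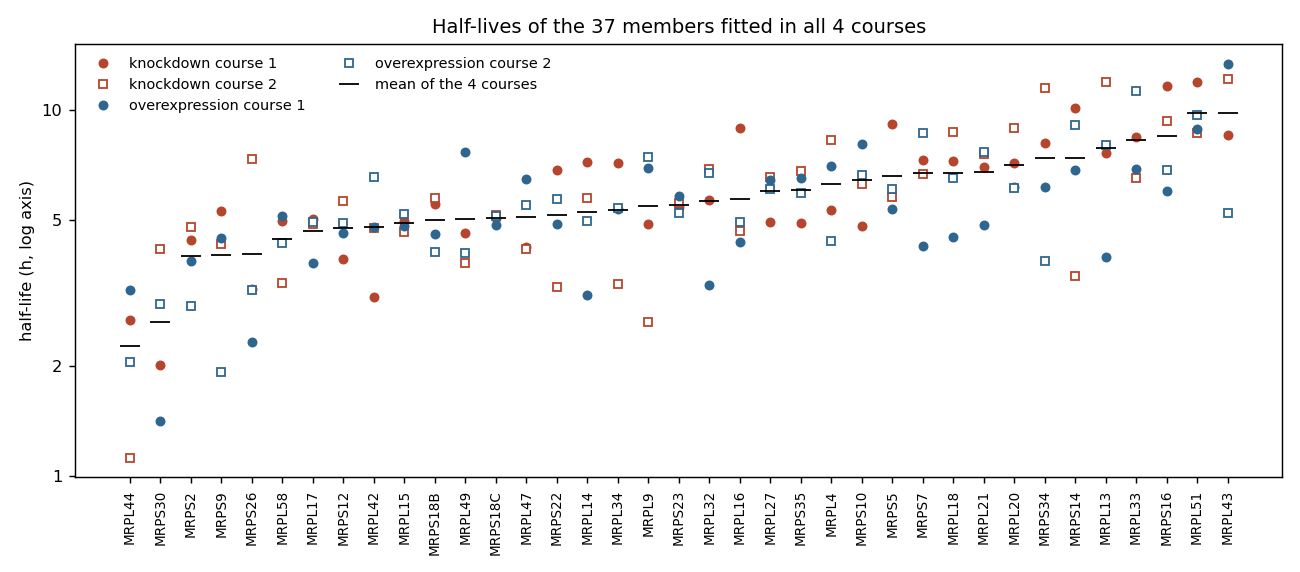
Points give the half-life in hours (log axis) of each of the 37 members fitted in all 4 courses, in order of their mean, which the black bar marks. The means run from 2.26 h for MRPL44 to 9.84 h for MRPL43, and knockdown and overexpression points mix for most members.

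No half-life differed between the lines past the threshold, in limma over 3317 genes, of which 0% were called and 256 had an unadjusted p under 0.05. That held for 2 of the 37 members, 1 in each direction. MRPS34 had 8.12 and 11.5 h in the knockdown courses against 6.16 and 3.86 h (log2 ratio 0.99, SE 0.37, adjusted p = 0.644 by limma). MRPL9 had 4.88 and 2.64 h against 6.96 and 7.45 h (-1.005, SE 0.38, adjusted p = 0.644 by limma). The next largest ratios were those of MRPS26 (0.84) and MRPL13 (0.76) and, below 0, of MRPL44 (-0.57) and MRPL42 (-0.55), each with an SE from 0.36 to 0.49. Over the 37 members the median log2 ratio was 0.19, with 21 above 0, and over all genes 0.20. Replicate courses differed by a median of 0.41 (knockdown line) and 0.37 (overexpression line) in absolute log2 half-life. Without the 720 min library of overexpression course 1 the members' median ratio was 0.06 (n = 35).

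The T>C rate at 0 min reflects how much of each mRNA was made during the pulse. It did not differ between the lines for any member past the threshold, and 0% of 8592 genes were called by limma, with 478 genes at an unadjusted p under 0.05. The median over 69 members was 0.970% and 0.891% in the knockdown courses and 0.993% and 0.930% in the overexpression courses. The medians of all genes were 0.828%, 0.820%, 0.874% and 0.873%, lower in each course, and those of the oxidative phosphorylation mRNAs 0.616%, 0.677%, 0.812% and 0.754%. The highest rates were those of MRPL44 (1.28% ± 0.27, SD, n = 4 courses), MRPL13 (1.25% ± 0.27), MRPL58 (1.23% ± 0.23) and MRPL49 (1.21% ± 0.11). The lowest were those of MRPL2 (0.586% ± 0.286), MRPL54 (0.608% ± 0.318), MRPL24 (0.613% ± 0.184) and MRPL10 (0.636% ± 0.211), mRNAs whose courses were scattered. Among the 37 members with 4 half-lives, the mean rate at 0 min and the mean half-life correlated at r = -0.44 across genes, which share libraries and the 0 min reads that enter both values, and are not independent replicates. MRPL44 thus had both the highest rate and the shortest half-life. MRPL39 had the smallest unadjusted p for a difference between the lines, with 0 min rates lower in the knockdown line (log2 ratio -0.86, SE 0.22, adjusted p = 0.814 by limma), which did not pass.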

How the data were processed

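RNA was read by 3′ end sequencing (QuantSeq), and per the labels the authors mapped it to hg38 with SLAMdunk 0.4.3. The deposited tables give, per 3′UTR interval and library, read counts, CPM, and the fraction of converted T. Counts of covered and converted T were also deposited. Intervals were summed per gene, and those naming several genes were left out. The authors' CPM and conversion fraction columns were checked against the counts, and values were recomputed per gene. Abundance was tested on counts with edgeR 4.0.16 (TMM, filterByExpr, quasi-likelihood), half-lives and 0 min T>C rates with limma 3.58.1, in R 4.3.3, with Benjamini-Hochberg adjustment and a threshold of 0.05. DESeq2 1.42.0 was an alternative. Half-lives needed at least 1 CPM, 4 time points and a value from 0.05 to 200 h. The scripts were tested on simulated data. The members and lists were chosen with earlier results of these data known. Named are members past a threshold, the 4 highest and lowest of each subunit in level and half-life, the 4 highest and lowest 0 min rates, the 3 largest half-life ratios each way, a few paralogues, stalk and misnamed proteins, and list genes past a threshold. Other genes named were chosen after their values were seen. The library subsets, all 34 libraries as samples and the shared intervals were alternatives chosen after seeing the data.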

Additional observations from a re-analysis of the deposited data

Results flagged for a closer look

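Over 47 sets of 4 courses, 2 held a course far from the other 3, a share near the 1 in 20 that chance gives. That rate is for 4 independent draws from 1 group. It is only a rough guide here, because the sets overlapped and each mixed both lines. The summed level of the MRPS mRNAs in the unlabelled libraries was 1519 CPM in knockdown course 1 against 1914 to 1976 CPM in the other 3 courses, a gap of 0.863 of the whole range. That library stood apart from its line over all genes too. The pooled T>C rate of the MRPS mRNAs at 180 min was 0.681% in knockdown course 2 against 0.817% to 0.830% in the others, a gap of 0.91 of the range.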

How the results depend on the processing

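The count of members lower in the knockdown line, 5, was 8 without the count filter, 9 without the unlabelled libraries, 9 without the 720 min libraries, 13 without both, 19 with all 34 libraries as samples, and 1 to 7 with 1 course left out. Members higher, 0, were 1 with all 34 libraries (MRPS25). With the replicate number as a block, 27 were lower and 2 higher, where 39.9% of all genes were called in either direction. Nothing in the labels ties the numbers to a shared culture or day. Deviations of course 1 of both lines correlated at 0.43 for the course sums on which the lines were compared, at 0.07 to 0.25 at single times and at -0.03 for half-lives, and with 2 courses a line this does not settle whether the numbers pair the samples. The block changed no call of members in the label, interaction, half-life or 0 min rate comparisons. Members lower over the chase, 1, were 4 by DESeq2, 2 without the filter, 2 with the block, 0 without multimapped intervals, and 0 to 1 with 1 course left out. The MRPL median of the line difference, -0.11, was -0.27 at 0 min alone and -0.32 to 0.0014 with 1 course left out. The MRPL median half-life ratio, 0.13, was 0.28 without an R2 minimum, 0.31 from 180 min on and -0.076 to 0.20 with 1 course left out. The MRPS ratio, 0.28, was 0.42 at R2 of at least 0.8, 0.075 without a minimum, 0.14 at times in all courses, 0.18 from 180 min on, 0.15 without the 720 min library of overexpression course 1, and 0.033 to 0.26 with 1 course left out. The causes were not tested. Over all genes, line calls rose from 2885 to 5251 with the block and 5311 with all 34 libraries. Chase calls, 552 of 11927, were 861 of 11927 by DESeq2, 796 of 15106 without the filter and 773 of 12280 with the block. They were 524 of 11422 without multimapped intervals and 281 to 348 with 1 course left out. Label calls, 0, were 2 by DESeq2 and 14 without the filter, and interaction calls, 2, were 13, 16 without the filter, 19 with the block and 3 to 5 with 1 course left out. Over their alternatives the 6 calls of single members stayed past the threshold 64 times, lost significance 20 times and reversed 0 times.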
